A study of Mus musculus with 6 samples.

Results

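Complement is a cascade of secreted proteins, receptors and inhibitors that tags cells and debris for removal. The 9 genes described here cover part of it, namely the 3 chains of C1q (C1qa, C1qb and C1qc), the central components C3 and C4b, properdin (Cfp), the receptor C3ar1, and the inhibitors Serping1 and Cd55. They were chosen by symbol, and all 9 were found among the 24421 symbols of the count table. RNA was sequenced from cochlear explants, that is, cultured pieces of the inner ear from wild-type (WT) pups at P2. The neomycin group was given, 12 h later, 1 mM neomycin, an aminoglycoside toxic to sensory hair cells (HCs), for 6 h, and a further 5 days of culture with 10 μM EdU, a label of DNA synthesis, followed. The label text gives this same protocol for all 6 samples, and the control group (n = 3) is taken as explants without neomycin because its treatment label reads control. Each of the 3 control and 3 neomycin samples pooled 6 to 8 cochleae, and the tectorial membrane, the modiolus and the future stria vascularis were dissected away before culture. The strain, and whether the replicates came from separate litters, are not given in the sources used here, so p-values measure the spread between these samples.

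In the classical pathway C1q binds its targets and, with the proteases C1r and C1s, cleaves C4 and C2. C3 is the point where all routes meet, and its fragments mark surfaces and signal through receptors such as C3aR. Tissue macrophages are a known main source of C1q and are resident in the neonatal cochlea, whereas C3, C4 and the C1 inhibitor can also be made by epithelial and mesenchymal cells. In pooled tissue, a change in the number of cells of a type and a change in RNA per cell cannot be told apart.

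Between the neomycin and control explants, 6 of the 9 genes rose, 1 fell and 2 did not pass the test at an adjusted p under 0.05 (edgeR quasi-likelihood test, Benjamini-Hochberg over 15988 genes). Over all genes tested 29% passed, 12.9% higher and 16.1% lower. With a fold change over 1.5 required as well, 3 of the 9 were called higher (C1qa, C1qc and C3ar1) and 1 lower (C3), against 8.84% of all genes called, 2.24% higher and 6.6% lower. For 6 of the 9 genes every neomycin sample lay on the same side of every control sample, 5 higher and 1 lower, against 43.5% of all genes tested, 21% higher and 22.5% lower. The median log2 fold change, given below as the log2 ratio of neomycin to control, was 0.48 over the 9 genes and -0.0041 over all genes tested. All levels are CPM, the reads of a gene relative to its whole library after TMM scaling, and total counts per sample ran from 50471116 to 66068108.

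**Figure D1:**
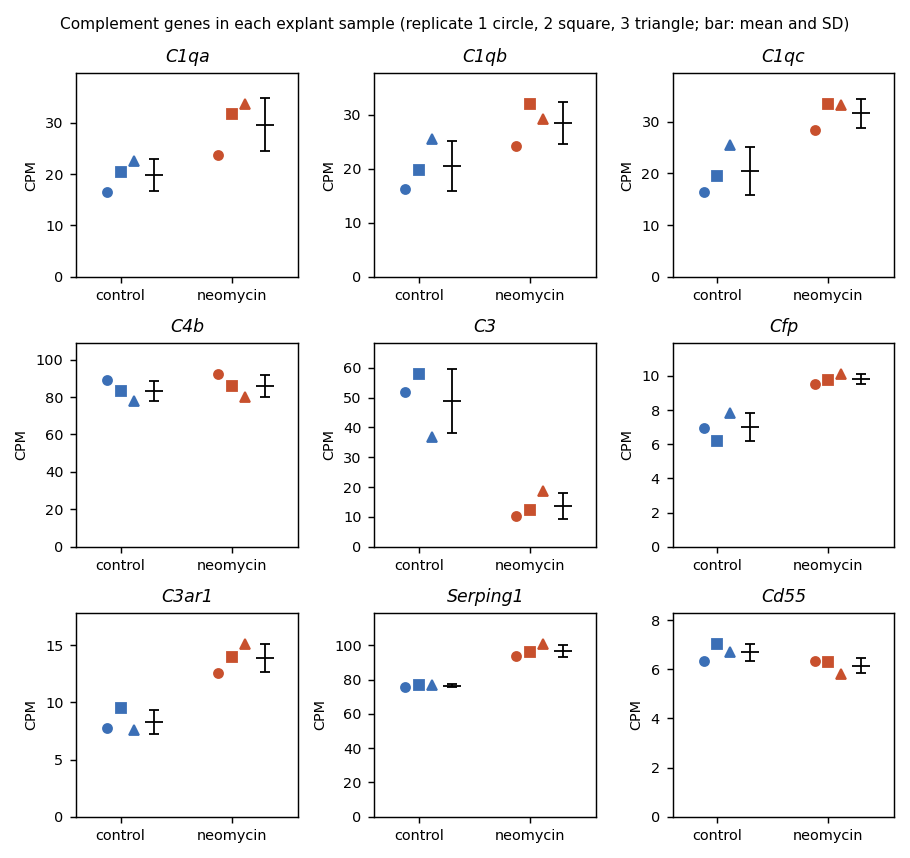
CPM of the 9 complement genes (y axes, from 0, each panel on its own scale) in the 3 control and 3 neomycin samples, with a marker for each replicate number and the group mean and SD as a bar. C3 lies between 10.3 and 18.7 CPM in the neomycin samples and between 36.8 and 57.8 CPM in the control samples, while C3ar1, Cfp, C1qa, C1qc and Serping1 are higher in every neomycin sample than in any control sample.

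The C1q chains, which assemble together into the recognition protein of the classical pathway, rose after neomycin. The 3 genes lie side by side on the minus strand of chromosome 4 (mm10, 136880129 to 136898803), a stretch of 18.7 kb, with C1qc between C1qb and C1qa. The sequences before the RefSeq starts of C1qb and C1qc are shown because these neighbours moved together, beside that of C3, which moved the other way, and that of C3ar1. Each line gives the 250 bases before the start (build GRCm38, minus strand, read 5′ to 3′, at chr4:136886201-136886450 for C1qb, chr4:136892915-136893164 for C1qc, chr17:57228137-57228386 for C3 and chr6:122856158-122856407 for C3ar1). Capitals mark GAGGAA on either strand, the core letters bound by PU.1, a transcription factor of myeloid cells.
C1qb: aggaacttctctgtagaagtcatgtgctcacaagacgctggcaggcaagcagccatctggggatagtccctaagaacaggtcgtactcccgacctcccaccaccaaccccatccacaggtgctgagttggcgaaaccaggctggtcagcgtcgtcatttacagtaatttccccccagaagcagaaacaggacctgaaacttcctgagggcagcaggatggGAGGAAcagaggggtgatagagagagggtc
C1qc: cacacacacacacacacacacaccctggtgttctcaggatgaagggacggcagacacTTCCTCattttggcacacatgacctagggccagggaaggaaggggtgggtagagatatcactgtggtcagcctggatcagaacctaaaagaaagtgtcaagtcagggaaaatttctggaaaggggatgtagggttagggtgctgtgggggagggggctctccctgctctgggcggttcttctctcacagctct
C3: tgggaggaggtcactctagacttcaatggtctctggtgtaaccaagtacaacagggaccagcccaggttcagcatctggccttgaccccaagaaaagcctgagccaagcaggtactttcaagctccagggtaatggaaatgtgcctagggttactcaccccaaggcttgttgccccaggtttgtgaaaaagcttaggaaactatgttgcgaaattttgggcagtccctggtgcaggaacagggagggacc
C3ar1: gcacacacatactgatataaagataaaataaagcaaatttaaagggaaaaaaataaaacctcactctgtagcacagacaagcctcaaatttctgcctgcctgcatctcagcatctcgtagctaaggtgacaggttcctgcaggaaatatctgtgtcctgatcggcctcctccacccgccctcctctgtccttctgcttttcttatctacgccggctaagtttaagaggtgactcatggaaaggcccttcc

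The core letters occur before C1qb, starting 30 bases ahead of the RefSeq start, and before C1qc, on the opposite strand and starting 193 bases ahead of its RefSeq start. They were not in these windows of C3, C3ar1, Cfp or Cd55, and 23.3% of the 32851 promoter windows of the same length hold them. The letters TTCNNNGAA, a pattern bound by STAT factors, were found in 7.02% of all windows and in none of the 6 available here. These are matches of letters only, and promoters of C1qa, C4b and Serping1 are not shown. The GENCODE annotation, used here for gene positions, starts C1qc further upstream, at 136893065. Part of the C1qc window, with its distance of 193 bases, therefore lies differently by that start, inside the annotated gene.

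C1qa was at 16.4, 20.3 and 22.5 CPM in control replicates 1, 2 and 3 and at 23.7, 31.6 and 33.6 CPM in neomycin replicates 1, 2 and 3. Its log2 ratio was 0.59 (SE 0.14, edgeR, adjusted p = 0.00843), a rise at the fold change threshold, which it passed in 7 of the 15 alternatives run. C1qc was at 16.4, 19.5 and 25.5 CPM in control and at 28.4, 33.4 and 33.2 CPM after neomycin, with a log2 ratio of 0.63 (SE 0.14, edgeR, adjusted p = 0.00570). Every neomycin sample lay above every control sample for both genes. C1qb was at 16.2, 19.9 and 25.5 CPM in control and at 24.3, 32.0 and 29.3 CPM after neomycin, with a log2 ratio of 0.48 (SE 0.15, edgeR, adjusted p = 0.0309). For this chain the groups overlapped, since control replicate 3 exceeded neomycin replicate 1.

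The chains kept a near-constant ratio to each other. C1qa made up 30.6% to 35.0% of the summed C1q CPM over the 6 samples, C1qb 30.5% to 34.7% and C1qc 32.7% to 37.2%. Across the 6 samples log2 CPM of the chains correlated with r between 0.95 and 0.97, and between 0.86 and 0.98 after the group means were removed. These are descriptions over samples that share libraries. C1q also varied within the control group, with a summed level of 49.0, 59.7 and 73.6 CPM in replicates 1, 2 and 3, against 76.4, 96.9 and 96.0 CPM after neomycin.

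The rise of C1q was sensitive to gene length and to single samples. In these libraries genes with short exons were higher after neomycin than genes with long ones. The median log2 fold change was 0.24 over the 20% of genes with the shortest summed exons (up to 2316 bp) and -0.19 over the 20% with the longest. Of the 3173 shortest genes 192 were called higher, against 11 of the 3172 longest. All 3 C1q genes (1040, 1088 and 1931 bp) and Cfp (1736 bp) belong to the shortest 20%. These lengths join all annotated exons and were used for the correction below, while the longest coding transcript of C1qc is 1203 bp. With this trend removed, the log2 ratio was 0.26 for C1qa (edgeR, adjusted p = 0.0766), 0.17 for C1qb (adjusted p = 0.302) and 0.45 for C1qc (adjusted p = 0.0117). Without control replicate 1 the values were 0.47, 0.33 and 0.50, and C1qb no longer passed (edgeR, adjusted p = 0.0881).

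C3, the central component of the cascade, on chromosome 17 from 57203970 to 57228136, fell 3.54-fold. It was at 51.8, 57.8 and 36.8 CPM in control replicates 1, 2 and 3 and at 10.3, 12.4 and 18.7 CPM in neomycin replicates 1, 2 and 3. The lowest control sample and the highest neomycin sample, both replicate 3, were still 18.1 CPM apart. The log2 ratio was -1.82 (SE 0.20, edgeR, adjusted p = 6.58e-05). Leaving out each sample in turn gave values between -2.10 and -1.65, with the highest adjusted p at 0.00106 (edgeR), and with the gene length trend removed it was -1.77. The ratio of C3 to its receptor transcript C3ar1, both in CPM, was between 4.82 and 6.67 in control and between 0.82 and 1.24 after neomycin.

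C4b, whose product is cleaved after C1q binds and forms part of the enzyme that splits C3, did not pass the test. It lies on chromosome 17 from 34728380 to 34743882 and was at 88.8, 83.0 and 78.0 CPM in control and at 92.1, 85.7 and 80.2 CPM after neomycin. The groups overlapped, and the log2 ratio was 0.05 (95% interval -0.12 to 0.21, edgeR, adjusted p = 0.688). Counts of C4b are uncertain to the extent that reads match C4a, a copy 65.2 kb away, since 35.2% of the 50-base windows of the C4b transcript occur unchanged in C4a. C4a itself averaged 1.49 ± 0.473 CPM in control and, with neomycin, 1.61 ± 0.476 (SD, n = 3).

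Cfp encodes properdin, which stabilizes the alternative pathway enzyme that cleaves C3 and is made mainly by myeloid cells. It lies on the X chromosome from 20925454 to 20931555 and was at 6.94, 6.19 and 7.85 CPM in control and at 9.53, 9.78 and 10.1 CPM after neomycin, with no overlap. The log2 ratio was 0.49 (SE 0.13, edgeR, adjusted p = 0.0140), under the fold change threshold. It did not pass with the gene length trend removed (0.27, edgeR, adjusted p = 0.115), without control replicate 2 (0.41, adjusted p = 0.0644) or without neomycin replicate 2 (0.49, adjusted p = 0.0515).

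C3ar1, the receptor for the C3a fragment, on chromosome 6 from 122847138 to 122856161, had the largest rise of the 9 genes. It was at 7.77, 9.49 and 7.63 CPM in control and at 12.6, 13.9 and 15.1 CPM after neomycin, a 1.68-fold rise with no overlap. The log2 ratio was 0.74 (SE 0.12, edgeR, adjusted p = 0.00127). It was called higher under each of the 15 alternatives run on it, with log2 ratios between 0.67 and 0.85. Its summed exons are 4305 bp long, and the value with the gene length trend removed was 0.75.

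Of the inhibitors, Serping1 rose by less than 1.5-fold and Cd55 did not pass the test. Serping1, on chromosome 2 from 84765387 to 84775444, encodes the C1 inhibitor, which blocks the proteases bound to C1q. It was at 76.0, 76.6 and 77.2 CPM in control and at 94.0, 95.9 and 101 CPM after neomycin, the narrowest spread of the 9 genes relative to the mean in control. Its log2 ratio was 0.34 (SE 0.07, edgeR, adjusted p = 0.00303), which passed under each of the 15 alternatives and reached 1.5-fold under none. With the gene length trend removed it was 0.19 (edgeR, adjusted p = 0.0318), for summed exons of 2325 bp (longest coding transcript 1768 bp). Cd55, on chromosome 1 from 130439027 to 130462744, encodes decay-accelerating factor, a membrane protein that takes apart the enzymes that cleave C3. It was at 6.33, 7.02 and 6.71 CPM in control and at 6.35, 6.30 and 5.79 CPM after neomycin, with a log2 ratio of -0.12 (95% interval -0.41 to 0.17, edgeR, adjusted p = 0.524). Reads of Cd55 and its copy Cd55b share 13.3% of 50-base windows of the Cd55 transcript, and Cd55b was at 0.0178 CPM on average in control.

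Per kilobase of exon, Serping1 stood highest of the 9 genes in both groups, at 32.9 ± 0.259 CPM per kb in control and 41.7 ± 1.49 after neomycin (SD, n = 3). C1qa (19.0 ± 2.96) and C1qb (18.9 ± 4.31) followed in control and did not differ beyond their spread, and neither did C1qb and C4b (14.6 ± 0.950). With summed exons as the length, C3 was next to C1qc in control (9.49 ± 2.10 and 10.6 ± 2.40) with overlapping values. After neomycin C3 stood below Cfp and beside C3ar1, at 2.68 ± 0.849 against 3.23 ± 0.289 CPM per kb, again with overlapping values. Cd55 was lowest in both groups by this length, at 1.38 ± 0.0705 and 1.27 ± 0.0638 CPM per kb. Its longest coding transcript is 2533 bp against 4853 bp of summed exons, and that of C1qc is 1203 against 1931 bp. The places of Cd55 and C1qc in this order therefore depend on the length used.

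A wider list of complement genes, written from general knowledge, held 55 others, of which 53 were in the table and 34 had enough counts to be tested. Of these 34, 3 rose (C2, Cr1l and Cd59a), 5 fell (C1ra, C1s1, Masp1, Csmd1 and Cd93) and 26 did not pass, so that 23.5% passed, against 29% of all genes. With the fold change threshold 3 were called lower (Masp1, Csmd1 and Cd93) and 0 higher by edgeR, and 0 higher by DESeq2 or limma-voom. The 3 called are 8.82% of the 34, against 8.84% of all genes. With the gene length trend removed the same 3 were called, with log2 ratios of -0.99 for Masp1, -1.08 for Csmd1 and -1.15 for Cd93. Without control replicate 1, Cd59a was called higher at 0.63 (edgeR, adjusted p = 0.00118) and Csmd1 did not pass at -1.16 (edgeR, adjusted p = 0.0639). At an unadjusted p under 0.05 by edgeR, 5 of the 34 were higher (14.7%, against 18.9% of all genes), 0 of them by more than 1.5-fold (against 2.89% of all genes). The median log2 fold change was 0.11.

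Among the genes that start the cascade, Masp1, a protease of the lectin pathway, on chromosome 16 from 23449417 to 23520815, fell 2.25-fold. It was at 12.3, 10.4 and 9.68 CPM in control and at 5.50, 4.41 and 4.52 CPM after neomycin (log2 ratio -1.17, SE 0.15, edgeR, adjusted p = 0.000179). C1ra and C1s1, the proteases that C1q carries, fell slightly while the C1q chains rose. C1ra averaged 38.9 ± 3.02 CPM in control and, with neomycin, 31.0 ± 1.96 (SD, n = 3), a log2 ratio of -0.33 (edgeR, adjusted p = 0.0141). C1s1 went from 68.0 ± 6.12 to 56.6 ± 4.30 CPM, a log2 ratio of -0.26 (edgeR, adjusted p = 0.0359). Both share sequence with neighbouring copies, C1ra over 50.8% and C1s1 over 24.3% of 50-base windows, and the copies C1rb and C1s2 were below 1 CPM in every sample. The collectin Colec12, the most abundant gene of this role in CPM, was at 148 ± 7.26 and 147 ± 3.85 CPM and did not pass.

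Of the central and alternative pathway genes, C2, which pairs with C4 in the enzyme that cleaves C3, rose from 83.6 ± 5.76 to 98.0 ± 1.42 CPM (SD, n = 3), a log2 ratio of 0.23 (edgeR, adjusted p = 0.0309). An annotated gene on the same strand, Gm20547, holds 58% of its 50-base windows. The terminal pathway, whose products form the pore in the membrane, was scarcely detected. C8g was its most abundant gene, at 5.09 ± 0.427 CPM in control and 6.80 ± 0.862 after neomycin, with a log2 ratio of 0.42 that did not pass (edgeR, adjusted p = 0.0538). C6, C8a and C8b had 3 counts or fewer in every sample, as did Mbl1, Cpn2 and Vsig4.

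Among the membrane regulators, Cd59a, an inhibitor of the pore, and Cr1l (Crry), the rodent inhibitor of C3 cleavage, rose. Cd59a was at 20.7, 15.7 and 18.0 CPM in control and at 24.9, 27.5 and 25.4 CPM after neomycin, a log2 ratio of 0.52 (edgeR, adjusted p = 0.00419). Cr1l was at 38.5, 41.3 and 41.5 CPM in control and at 50.6, 51.5 and 48.2 CPM after neomycin, a log2 ratio of 0.31 (edgeR, adjusted p = 0.00737). Neither group pair overlapped, and neither gene reached 1.5-fold. The summed exons of Cd59a (1811 bp) are among the shortest 20%, where the median log2 fold change was 0.24. Its value with the gene length trend removed is not given here. Csmd1, a large membrane protein with complement control domains, fell from 1.32 ± 0.307 to 0.511 ± 0.0579 CPM (SD, n = 3), a log2 ratio of -1.36 (edgeR, adjusted p = 0.0110). The 6 soluble regulators tested did not pass, among them clusterin (Clu), by far the most abundant gene of the list, with a log2 ratio of 0.19 (95% interval -0.05 to 0.43, edgeR, adjusted p = 0.208).

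Of the receptors, Cd93, a membrane protein of endothelial cells first described as a C1q receptor, fell from a mean of 12.1 ± 2.36 to 5.09 ± 0.667 CPM (SD, n = 3), a log2 ratio of -1.26 (edgeR, adjusted p = 0.000204). Of the 10 endothelial markers, 7 were called lower, against 6.6% of all genes. The median log2 fold change of these markers was -1.94. Their summed level was 339 to 384 CPM in control and 318 to 368 CPM after neomycin, of which Emcn, which did not pass, held 67.5% to 81.1%. Without Emcn the sums were 101 to 125 CPM in control and 69.4 to 72.7 CPM after neomycin, and the part of these cells in the fall of Cd93 was not tested. C5ar1, the receptor for the C5a fragment, was at 2.90, 3.16 and 3.68 CPM in control and at 4.37, 5.12 and 3.65 CPM after neomycin, and did not pass (log2 ratio 0.43, edgeR, adjusted p = 0.104).

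**Figure D2:**
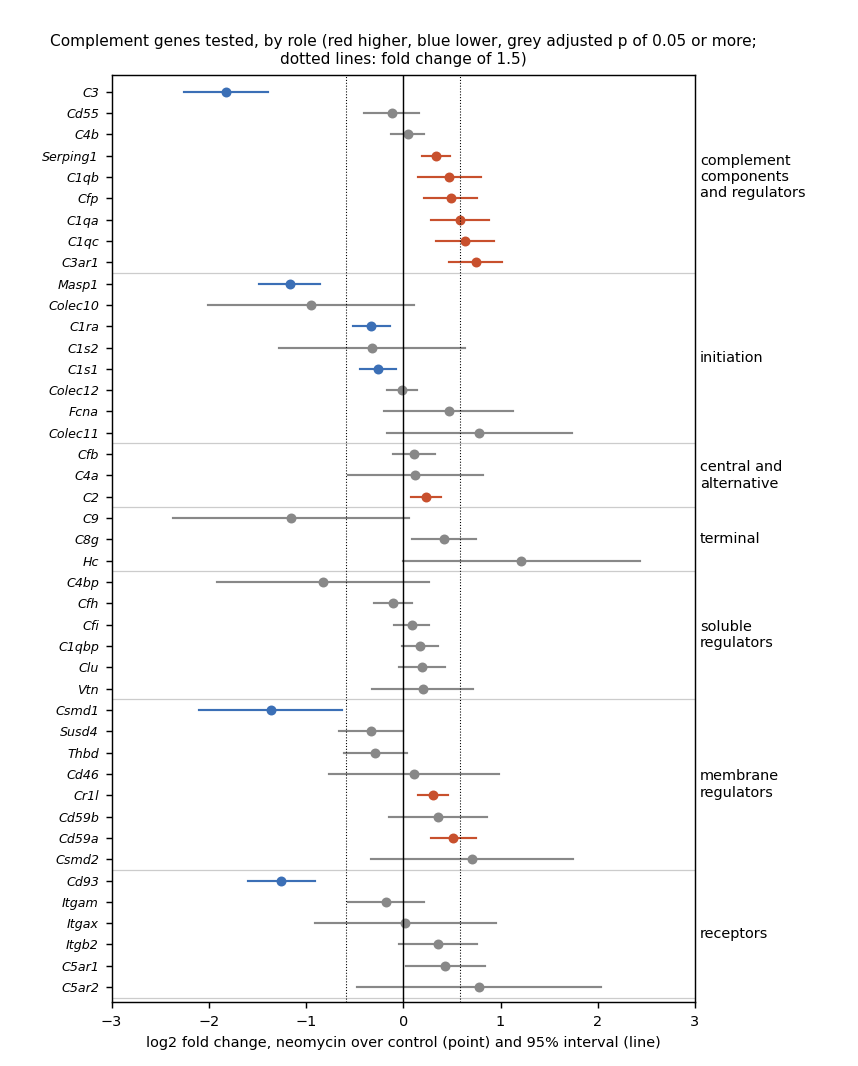
Log2 fold change, neomycin over control (x axis, point), with its 95% interval (line) for the 43 complement genes tested, grouped by role, in red where higher and blue where lower at an adjusted p under 0.05 and in grey otherwise. C3 lies furthest from 0 among the 9 genes at the top, at -1.82, opposite in direction to C3ar1, Cfp, Serping1 and the C1q chains.

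Some macrophage markers rose as the C1q chains did. Of 20 markers, 19 were tested, 9 of them rose, 1 fell (Cd14) and 9 did not pass, against 12.9% higher and 16.1% lower over all genes. With the fold change threshold 6 of the markers were called higher, against 2.24% of all genes. The summed level of the markers was 258, 292 and 300 CPM in control and 320, 387 and 389 CPM after neomycin, and 0 of the 20 were at 3 counts or fewer in every sample. Lyz2, encoding lysozyme, made up 40.9% to 46.1% of that sum and had a log2 ratio of 0.41 (edgeR, adjusted p = 0.0104). Ctss, a lysosomal protease and the next most abundant, had 0.48 (edgeR, adjusted p = 0.0174). The markers that rose included Tyrobp and Trem2, partners in a phagocytic receptor, with log2 ratios of 0.93 (edgeR, adjusted p = 0.000792) and 0.83 (edgeR, adjusted p = 0.000969). Cd68, a lysosomal protein of phagocytes, had 0.59 (edgeR, adjusted p = 0.00308). In contrast, Csf1r, the receptor that macrophages need to survive, had a log2 ratio of -0.05 (edgeR, adjusted p = 0.799). Adgre1 (F4/80) had 0.13 (edgeR, adjusted p = 0.541) and the leukocyte antigen Ptprc (CD45) 0.20 (edgeR, adjusted p = 0.613). Of the named markers that rose, Tyrobp, Cd68, Lyz2 and Ctss have short summed exons, of 667, 1257, 1316 and 1358 bp, but Trem2 has 4946 bp. Those of Csf1r, Adgre1 and Ptprc are 5774, 3238 and 18313 bp long. The part of gene length in this contrast was not tested. With the gene length trend removed, 3 of the 19 markers were called, 2 higher and 1 lower, against 233 higher and 948 lower of 15988 genes.

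The macrophage list holds no complement gene, so the following percentages are ratios to its sum. Summed C1q was at 19.0%, 20.5% and 24.5% of the marker sum in control and at 23.9%, 25.0% and 24.7% after neomycin, so that the groups overlapped. C3ar1 amounted to 3.01%, 3.25% and 2.54% of the marker sum in control and 3.94%, 3.60% and 3.88% after neomycin, without overlap. For Cfp the values were 2.69%, 2.12% and 2.62% in control and 2.97%, 2.53% and 2.59% after neomycin, with overlap. With Lyz2 left out of the sum, C3ar1 still did not overlap, at 4.71% to 5.84% in control and 6.50% to 7.30% after neomycin. These ratios were not tested, and the part of macrophage number in the rise of the C1q chains, Cfp and C3ar1 was not tested.

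**Figure D3:**
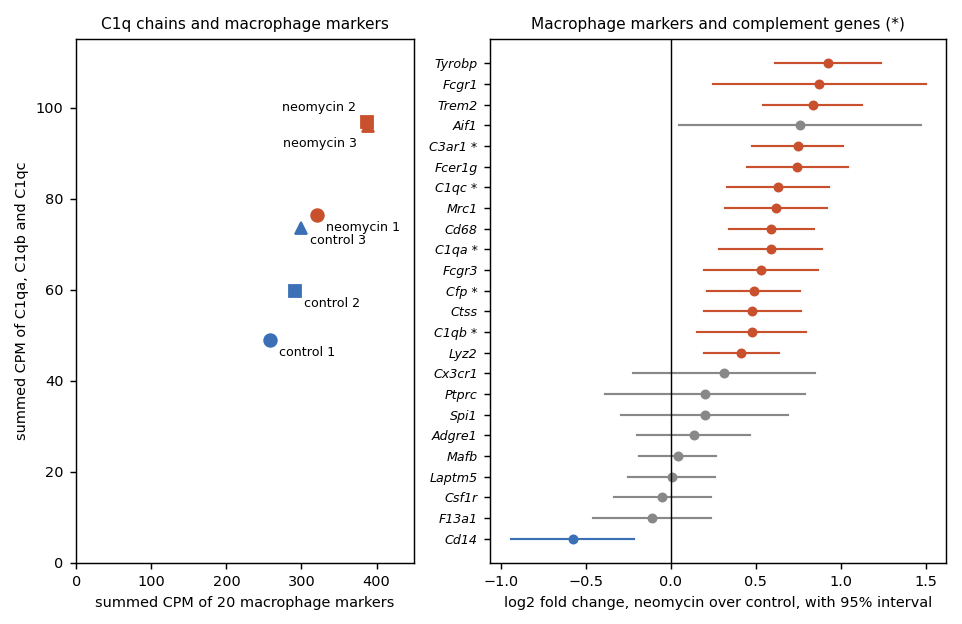
On the left, summed CPM of the C1q chains (y axis) against summed CPM of 20 macrophage markers (x axis) in the 6 samples, with control replicate 3 at 73.6 close to neomycin replicate 1 at 76.4. On the right, log2 ratio with its 95% interval for the 19 markers tested and 5 complement genes (asterisk), coloured as in the plot by role, where the C1q chains, Cfp and C3ar1 lie among the markers that rose.

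Other cell types moved as well, and their part in these results was not tested. Over all genes tested 2.24% were called higher and 6.6% lower. Of 15 HC markers 12 were called lower, and their summed level went from between 887 and 1014 CPM in control to between 369 and 443 CPM after neomycin. The mesenchymal markers overlapped between groups in summed level, at 8122 to 8605 CPM in control and 8249 to 8654 CPM after neomycin, with 1 called higher and 1 lower. Of 13 supporting cell markers 1 was called higher (Tectb) and 2 lower (Prox1 and Fgfr3), with a median log2 fold change of 0.11. Their summed level was 6093 to 7346 CPM in control and 7773 to 10876 CPM after neomycin, of which Tectb, a protein of the tectorial membrane, held 59.9% to 75.0%. Without Tectb the sums were 2401 to 2505 CPM in control and 2528 to 2722 CPM after neomycin. The neutrophil genes S100a8 and S100a9 were at 2.46 and 4.59 CPM in control replicate 3 and at 4.21 and 7.48 CPM in neomycin replicate 3, and at or below 0.203 CPM in the other 4 samples. Camp, the most abundant gene of the neutrophil list, was instead present in every sample. It was at 3.30, 3.78 and 3.81 CPM in control and at 4.12, 4.58 and 5.83 CPM after neomycin, and did not pass (edgeR, adjusted p = 0.0992). Schwann cell markers overlapped in summed level, at 296 to 362 CPM in control and 338 to 356 CPM after neomycin. Of these, 1 was called higher (S100b, log2 ratio 0.88, edgeR, adjusted p = 2.02e-05) and 1 lower (Erbb3, -0.90, edgeR, adjusted p = 0.00164). Without S100b, the most abundant, the sums were 231 to 299 CPM in control and 220 to 249 CPM after neomycin.

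The genes whose log2 CPM followed C3 most closely over the 6 samples, among those with a mean of at least 5 CPM, were Arid3a, Il1rap, D17H6S56E-5, Hs3st3b1 and Rbm33, with Pearson r between 0.995 and 0.998. All 5 were lower after neomycin, with log2 ratios between -0.67 and -0.36. For summed C1q they were Cstf3, Dctpp1, Mrpl51, AK010878 and Rtca, of which Cstf3 and AK010878 did not pass (edgeR, adjusted p = 0.0805 and 0.189). Their log2 ratios lay between 0.21 and 0.37, and r between 0.997 and 0.998. These are the highest of 11776 correlations or more on 6 samples that share the group difference, and serve as a description.

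**Figure D4:**
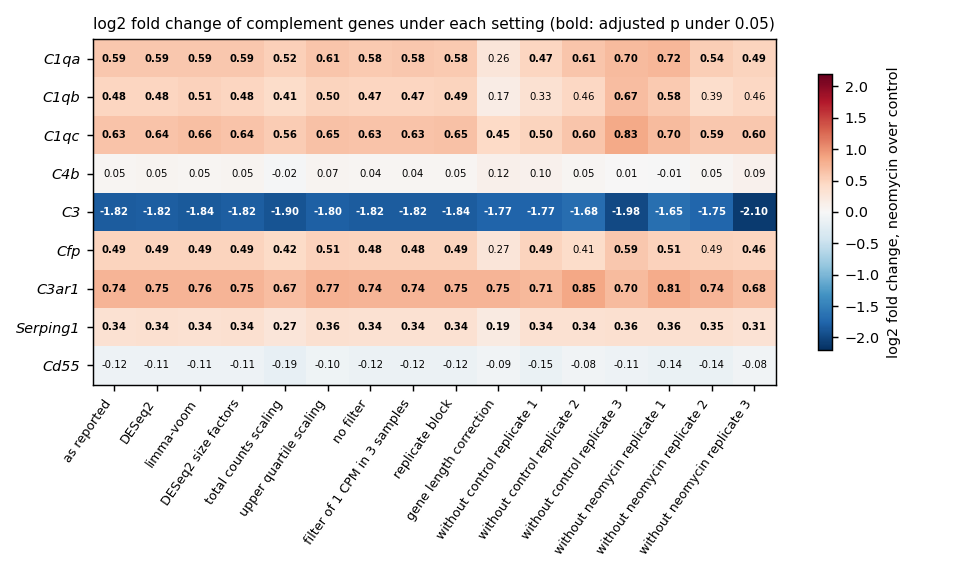
Log2 fold change, neomycin over control (colour and number), of the 9 genes (rows) as reported and under the 15 alternatives (columns), in bold at an adjusted p under 0.05. C3 and C3ar1 keep their sign and stay bold in every column, whereas C1qa, C1qb and Cfp lose significance with the gene length correction, at 0.26, 0.17 and 0.27.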

How the data were processed

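RNA from 6 samples of cochlear explants, 3 control and 3 neomycin, was sequenced. The authors called bases with CASAVA 1.8, trimmed reads with Trimmomatic 0.23, aligned them to mm10 with HISAT2 and counted them with HTSeq on the UCSC annotation. They deposited raw counts of reads per gene symbol. The strand setting and the handling of multiply mapped reads are not given in the sources used here, so overlapping genes and near-identical copies can share reads. No column was left without a sample.

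Counts were filtered with filterByExpr, scaled by TMM and tested with edgeR 4.0.16 (quasi-likelihood, Benjamini-Hochberg over 15988 genes) under R 4.3.3. Genes were called at an adjusted p under 0.05 if they also changed by more than 1.5-fold, as in the study's methods. "Rose" and "fell" refer to an adjusted p under 0.05. Each SE is the absolute log2 ratio over the root of its F statistic. Alternatives were DESeq2 1.42.0, limma-voom (limma 3.58.1), other scalings, filters and thresholds, the replicate number as a block, a gene length correction (lowess, span 0.3, exon lengths for 99.2% of tested genes) and each sample left out in turn. Positions and exon lengths are from GENCODE M21, which holds 23376 of 24421 symbols directly and 670 by an older symbol. Promoters are from RefSeq (GRCm38.p6), given for 6 of the 9 genes.

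The rule for named genes took the 9 members, the other complement genes called, the most abundant tested gene of each role, the 3 most abundant markers of a list (printed in full for macrophages and neutrophils only), and the 5 genes most like C3 and summed C1q. C1ra, C1s1, Cd59a, C5ar1, the genes with 3 counts or fewer and the other markers named fall outside it and were chosen after their values were seen. The members and lists were chosen with earlier results of these data known. Replicates were not duplicates: the chi-square between samples of a group averaged 12.2 to 39.9 over genes. Proteins were not used here. Total counts limit precision by counting error only, and the lowest count of any of the 9 genes in a sample was 311. The code was tested on simulated data.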

Additional observations from a re-analysis of the deposited data

How the results depend on the processing

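Of the 9 genes, C3, C3ar1, C1qc and Serping1 kept their direction and an adjusted p under 0.05 under each of the 15 alternatives. The gene length correction used summed exons, which exceed the longest coding transcript for C1qc (1931 against 1203 bp) and Serping1 (2325 against 1768 bp). It was not run with transcript lengths. The number of the 9 called was 4 as reported, 2 with total counts scaling, 2 with the gene length correction and 7 with no fold change threshold, and between 2 and 6 with each sample left out. It was 2 without control replicate 1, where C1qa and C1qc fell under the fold change threshold, and 6 without control replicate 3, where C1qb and Cfp passed it. With no fold change threshold, 4629 of all genes, 8 of the other complement genes and 10 of the macrophage markers were called, against 1413, 3 and 6, and leaving out each sample gave between 1037 and 1672 of all genes and 3 of the other complement genes, though not always the same 3. Without control replicate 1 these were 1 higher (Cd59a) and 2 lower, Csmd1 having lost its call. The gene length correction gave 3 macrophage markers, and leaving out each sample gave between 3 and 8, the 3 being without control replicate 1. C4b, which did not pass in any setting, changed sign to -0.023 with total counts scaling and lay between -0.0057 and 0.10 with each sample left out. The cause of these changes was not tested, except that dropping the fold change threshold can only add to the count by construction. C1qb lost significance in 5 alternatives, namely the gene length correction and without control replicate 1 or 2 or neomycin replicate 2 or 3, and Cfp in 3.

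The labels share replicate numbers between groups. Samples with the same number had correlations of their deviations from the group means of 0.17, 0.03 and 0.09, of which 1 was over 0.1, the minimum set for every pair, so the numbers were not taken as pairs. As a hint from the data, 5 of the 6 samples correlated best with their own number, and S100a9 was at 4.59 and 7.48 CPM in the samples numbered 3 and at or below 0.203 CPM elsewhere. Camp, of the same neutrophil list, was at 3.30 to 5.83 CPM over the 6 samples. With the replicate block the number of genes called went from 1413 to 1465, and 3 of the 9 genes, 3 of the other complement genes and 7 macrophage markers were called, against 4, 3 and 6. C1qa was at 0.58 with the block and 0.59 without it, on either side of the fold change threshold.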
